A study of Mus musculus with 6 samples.

Results

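A set of 9 innate immune genes of the mouse were examined for chromatin accessibility: the nucleic acid sensors Zbp1, Ifih1, Ddx58 and Dhx58, the transcription factors Stat2, Irf7 and Irf9, and the antiviral effectors Mx1 and Mx2. The regions studied were all those that the authors' table pairs with one of these 9 gene names, at any distance, 14 of the 63430 in the table. The genes were selected on signal differences between the groups that were already known, so their fold changes and calls in this comparison describe the selection and carry no test. Regions whose distance to the transcription start site (TSS) was at most 1000 bp, as the table gives it, are called promoter regions: there were 11, at least 1 for each of the 9 genes. The other 3 lay farther away, at Mx1, Mx2 and Dhx58.

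The libraries came from NIH/3T3, a mouse embryonic fibroblast line, and were made by ATAC-seq, an assay that reads open DNA through the cuts of the transposase Tn5. Both groups had the same genotype, a Cas13d knock-in, which supplies an RNA-cutting CRISPR nuclease. The control group (3 libraries) was transfected with a guide RNA against GFP, and the other group (3 libraries, named sg3-KD) with a guide RNA against the mRNA of Actg1, which encodes gamma-actin. Per the labels the study asked how degradation of that mRNA relates to transcriptional adaptation, and whether the Cas13d line was a single clone is not stated.

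Cells detect foreign or misplaced nucleic acid with sensor proteins, some in the cytosol, whose signalling leads to secretion of type I interferon. Interferon binding to its receptor activates the JAK kinases, and STAT2 and IRF9 then act in the complex ISGF3, which binds the interferon-stimulated response element (ISRE) in the promoters of interferon-stimulated genes. All 9 genes are themselves known to be induced by interferon in many cell types, and fibroblasts are a classical source of type I interferon.

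RefSeq promoter windows of build GRCm38.p6, the same assembly as the mm10 build of the table, were matched by gene symbol for 5 of the 9 genes: Ifih1, Ddx58, Stat2, Irf7 and Irf9. Each window runs from 250 bases before the annotated start to 50 after it. They were searched on both strands for the ISRE core (GAAA, any 2 bases, GAAA, or TTTC, any 2 bases, TTTC on the opposite strand) and for the STAT dimer element GAS (TTC, any 3 bases, GAA). The motifs can overlap. The ISRE core was found in 3 of the 6 windows of these genes (Irf9 has 2 windows) and in 3.44% of the 32851 windows of all genes. The GAS letters were found in 0 of the 6 and in 8.30% of all. The 3 stretches with an ISRE match are printed 5′ to 3′ on the strand of the gene, with the match in capitals, because each match lies inside the accessible region of its gene. No stretch holds more than 30 bases from past the start.
Ifih1, chr2:62646206-62646233, minus strand: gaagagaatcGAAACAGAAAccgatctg
Ddx58, chr4:40239814-40240075, minus strand: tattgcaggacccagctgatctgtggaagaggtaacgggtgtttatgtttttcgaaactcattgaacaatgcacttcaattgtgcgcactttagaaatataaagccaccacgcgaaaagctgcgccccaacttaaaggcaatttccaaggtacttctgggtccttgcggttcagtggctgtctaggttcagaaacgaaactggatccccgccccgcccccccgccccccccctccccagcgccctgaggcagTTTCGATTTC
Stat2, chr10:128270248-128270497, plus strand: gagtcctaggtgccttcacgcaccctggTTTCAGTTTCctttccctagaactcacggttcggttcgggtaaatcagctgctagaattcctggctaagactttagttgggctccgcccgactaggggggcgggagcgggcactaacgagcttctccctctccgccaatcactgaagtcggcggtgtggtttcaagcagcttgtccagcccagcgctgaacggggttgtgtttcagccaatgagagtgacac
The Stat2 match lies 222 bases before the annotated start, while those of Ifih1 and Ddx58 lie after it. A match describes letters in a window and is not a measured binding site. Windows for Zbp1, Mx1, Mx2 and Dhx58 were not used here.

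The 9 genes divided into those whose promoter regions had less signal with the Actg1 guide and those whose libraries overlapped. Zbp1, Mx1, Mx2 and Dhx58 had 6 promoter regions with lower signal in every Actg1-guide library than in any GFP-guide library. Ifih1, Ddx58, Stat2, Irf7 and Irf9 had 5 promoter regions whose groups overlapped. By limma with Benjamini-Hochberg adjustment over 61327 regions, called at an adjusted p under 0.05, the same 6 regions were called lower and 0 of the 11 higher, with the same counts at an unadjusted p under 0.05. Among all 11650 promoter regions tested, 18.7% were called lower and 14% higher, and 25.2% had groups that did not overlap with the Actg1 guide lower (18.8% with it higher). Lower by at least 2-fold were 3 of the 11, beside 1.29% of all promoter regions called lower by that size. The comparison of these shares is fixed by how the genes were chosen and nothing is read from it. The median log2 fold change of the 11 regions was -0.43, and that of all promoter regions was -0.02. Zbp1 and Mx2 contribute 2 promoter regions each, so the 6 regions stand for 4 genes.

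**Figure D1:**
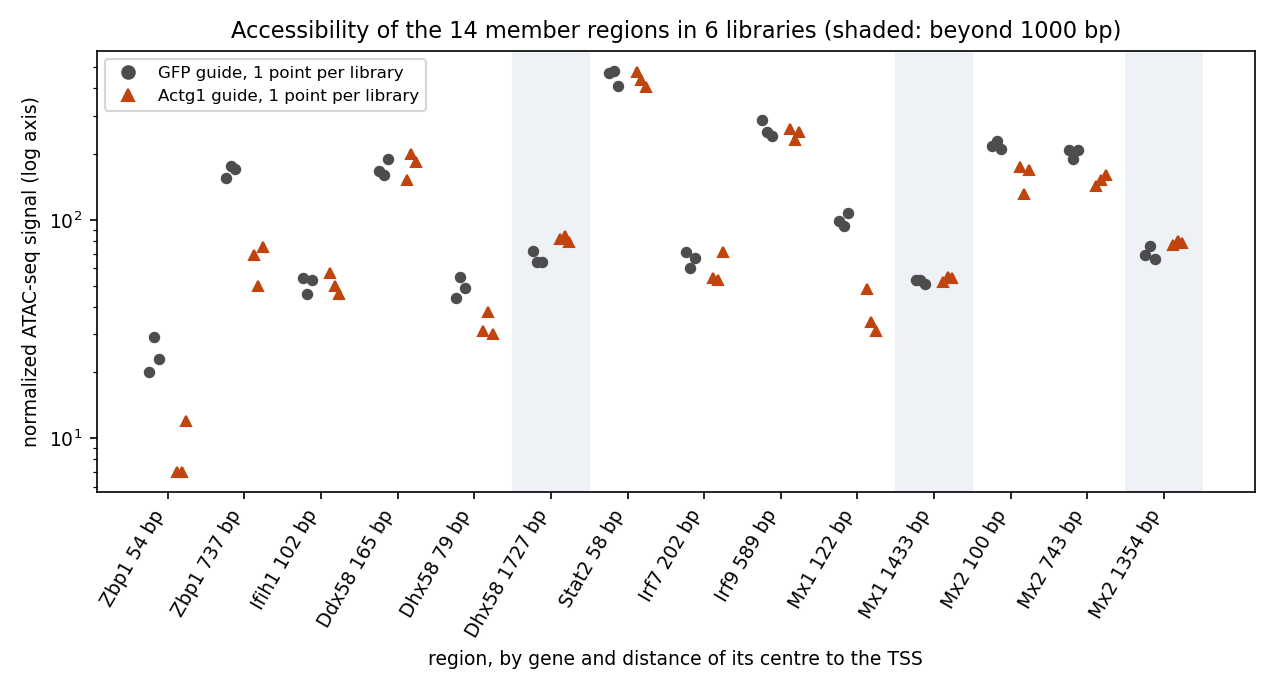
Normalized signal (log axis) of the 14 regions in each of the 6 libraries, with the regions beyond 1000 bp of a TSS shaded. The groups separate at both promoter regions of Zbp1 and of Mx2 and at those of Mx1 and Dhx58, whereas Stat2, between 405 and 482 in every library, is the highest region in every library and its groups overlap.

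Among the sensors, Zbp1 had the most negative values. ZBP1 binds nucleic acids in the Z conformation and can trigger necroptosis through RIPK3. Its larger promoter region, chr2:173219411-173219908 (498 bp), is centred 737 bp upstream of the TSS and does not reach it. The signal there was 156, 177 and 171 in GFP-guide replicates 1 to 3 and 69, 50 and 75 in Actg1-guide replicates 1 to 3. The highest Actg1-guide library was below the lowest GFP-guide library by more than the range within either group. The group means were 168.8 ± 3.18 (SD, n = 2) and 64.7 ± 13.1 (SD, n = 3), where n = 2 because the first and second GFP-guide libraries were alike within sampling noise, a smaller difference than any other pair showed, and were counted as 1 sample. The log2 fold change, computed as for every region on log2(signal + 1), was -1.39 (SE 0.144), a signal 2.62-fold lower. A small region spans the Zbp1 start, chr2:173218891-173219063 (173 bp), with signals of 20, 29 and 23 against 7, 7 and 12. It was the weakest of the 14 regions, and its log2 fold change of -1.40 had the largest standard error of them (0.360). Without GFP-guide replicate 3 that value was -1.44 and the limma call was lost. This fit leaves 1 averaged GFP-guide sample, assumed to vary like the Actg1-guide samples. By contrast, the call at the larger region stayed under every alternative tried. Here and at the other members, a call kept or lost only describes how the value depends on the fit. It is no support, because the genes were chosen on this comparison.

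The 2 helicase sensors that start signalling had nearly the same signal in both groups. Ifih1 encodes MDA5, which binds long double-stranded RNA, and Ddx58 encodes RIG-I, which binds RNA with a 5′-triphosphate end. The Ifih1 region, chr2:62645942-62646363, spans the start and had 54, 46 and 53 with the GFP guide and 57, 50 and 46 with the Actg1 guide. Its log2 fold change was -0.02 (SE 0.178). The Ddx58 region, chr4:40238937-40240388, is the longest of the 14 at 1452 bp and had 167, 161 and 191 against 153, 201 and 184. Its log2 fold change was 0.01 (SE 0.107). Both values took either sign under the alternatives tried. In both genes the ISRE match printed above lies inside these regions.

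Dhx58 encodes LGP2, a relative of the other helicases that lacks their signalling domains and modulates them. Its promoter region, chr11:100704227-100704472, spans the start and had 44, 55 and 49 with the GFP guide and 31, 38 and 30 with the Actg1 guide. The log2 fold change was -0.57 (SE 0.203), and of the 6 lower calls this one was lost under the most alternatives. Leaving out GFP-guide replicate 2 or 3 or Actg1-guide replicate 1 or 3 ended the call, with log2 fold changes of -0.49, -0.58, -0.53 and -0.51. A further region inside the gene, chr11:100702332-100702755, centred 1727 bp downstream of the start, had the opposite sign. It had 72, 64 and 64 against 82, 84 and 79, so every Actg1-guide library was higher, with a log2 fold change of 0.30 (SE 0.146) that was not called.

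The transcription factor genes did not separate the groups, and the signs at Stat2 and Irf9 turned under some alternatives. STAT2 and IRF9 are subunits of ISGF3, and IRF7 drives the genes of type I interferons. The Stat2 region, chr10:128270203-128270798, spans the start and had 472, 482 and 410 against 474, 439 and 405. Its log2 fold change was -0.01 (SE 0.072), the smallest standard error of the 14 regions. The Irf9 region, chr14:55603772-55604548, is centred 589 bp downstream of the start and had 288, 252 and 242 against 261, 233 and 254. Its log2 fold change was -0.04 (SE 0.086). At Irf7 the spread between libraries was larger relative to the level. Its region, chr7:141265963-141266594, had 71, 60 and 67 against 54, 53 and 71. One Actg1-guide library equalled the highest GFP-guide library, and the log2 fold change was -0.17 (SE 0.166).

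Mx1 and Mx2 encode dynamin-like GTPases that block virus replication; the table lists both as polymorphic pseudogenes, genes that are intact in some mouse strains only. The Mx1 promoter region, chr16:97462789-97463268 (480 bp), spans the start and had 99, 94 and 107 with the GFP guide and 48, 34 and 31 with the Actg1 guide. The means were 101.8 ± 7.42 (SD, n = 2) and 37.7 ± 9.07 (SD, n = 3). The log2 fold change of -1.43 (SE 0.180) was the most negative of the 14 and lay between -1.62 and -1.31 under 13 alternatives without loss of the call. Of all promoter regions, 0.464% had a more negative value than Mx1. As the genes were chosen on this comparison, nothing is read from that place. The second Mx1 region, chr16:97461290-97461658, lies 1433 bp downstream of the start, inside the gene. Its signal of 53, 53 and 51 against 52, 55 and 54 gave a log2 fold change of 0.05 (SE 0.172).

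Mx2 had 3 regions. The region that spans its start, chr16:97534907-97535508, had 219, 229 and 212 with the GFP guide and 174, 132 and 169 with the Actg1 guide. Its log2 fold change was -0.47 (SE 0.106). The call was lost without GFP-guide replicate 3 (log2 fold change -0.51) and when limma was fitted with no mean-variance trend. The region downstream of it, chr16:97535712-97536389, had 210, 191 and 210 against 143, 153 and 160, with a log2 fold change of -0.43 (SE 0.101). Its call was kept under every alternative. Upstream, at 1354 bp, chr16:97533851-97534056 had 69, 76 and 66 against 77, 80 and 78, a log2 fold change of 0.18 (SE 0.147), with the Actg1-guide libraries just above the others. The values near the 1000 bp limit were therefore -1.39 (Zbp1, 737 bp) and -0.43 (the downstream Mx2 region, 743 bp) just inside, and 0.18 (Mx2, 1354 bp) and 0.05 (Mx1, 1433 bp) just outside.

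Beyond 1000 bp, 0 of the 3 regions were called by limma (1 had an unadjusted p under 0.05, with the Actg1 guide higher), beside 40.7% of the 9530 regions that the table pairs with a gene at such distances. In 2 of the 3 the groups did not overlap, with the Actg1 guide higher, beside 27.2% of those 9530. Among the regions paired with Mx1, Mx2 and Dhx58, the lower values thus stood within 1000 bp of the start. The farther paired regions had log2 fold changes from 0.05 to 0.30. The authors' pairing reaches no farther than 5988 bp, so more distant regions are not counted here. Near Mx1, 2 such regions were called lower. They lay at the far end of the gene (log2 fold change -0.595, limma adjusted p = 0.0247) and beyond that end (-0.544, limma adjusted p = 0.0352). A difference between promoter and farther regions of the same gene was not tested. In these bulk libraries, a region open in fewer cells and a region less open in each cell cannot be told apart.

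**Figure D2:**
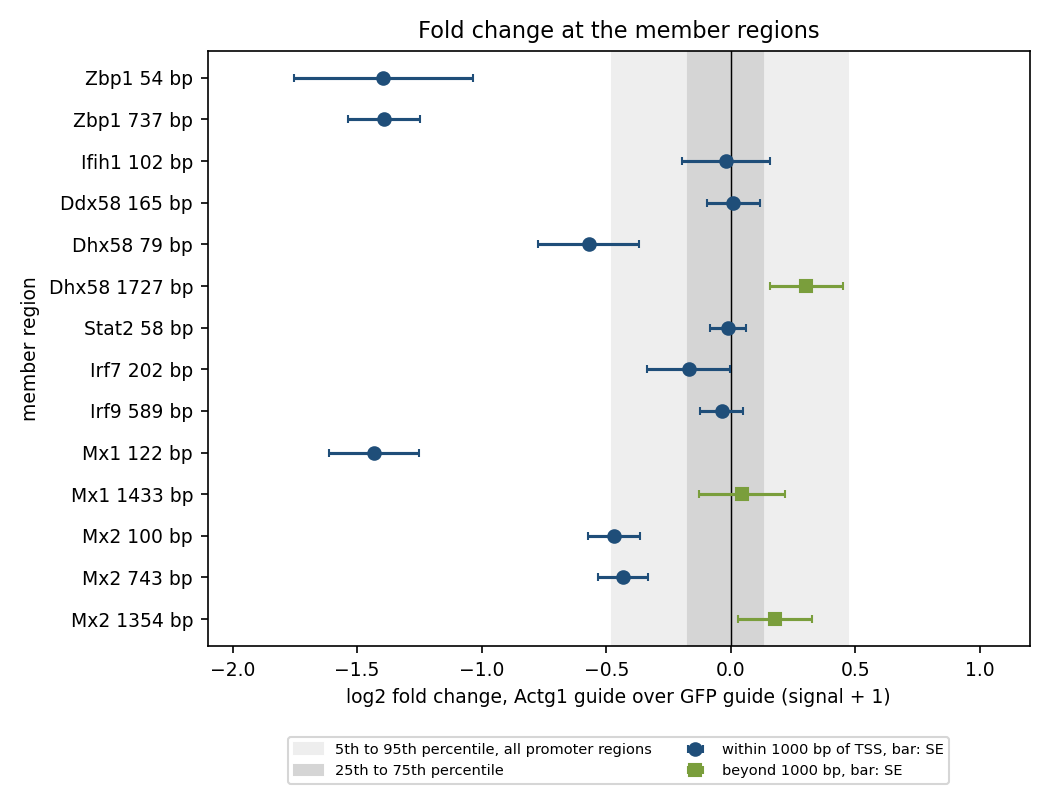
Log2 fold change (Actg1 guide over GFP guide, signal + 1) of each of the 14 regions, with its standard error as the bar. Zbp1 and Mx1 lie between -1.43 and -1.39, Dhx58 and Mx2 between -0.57 and -0.43, and the other 8 regions between -0.17 and 0.30.

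Levels at promoter regions were compared between genes as signal per kb of region. With the GFP guide, Stat2 was highest, with a median of 791.9 per kb (687.9 to 808.7), above 95.8% of all promoter regions, whose median was 290.2. The Mx2 region at the start (363.8 per kb), the upstream Zbp1 region (343.4) and Irf9 (324.3) followed, and their ranges overlapped. The second Mx2 region, at 309.7 per kb, lay just below these without overlap. Mx1 (206.2 per kb) and Dhx58 (199.2) came next and overlapped. The Zbp1 region at the start (132.9 per kb), Ifih1 (125.6), Ddx58 (115.0) and Irf7 (106.0) were lowest, and each overlapped its neighbour in this order except that Irf7 overlapped Ddx58 and Ifih1 but not Zbp1. With the Actg1 guide the order of levels per kb differed at the genes that were lower. The upstream Zbp1 region had a median of 138.6 per kb (100.4 to 150.6), which overlapped the ranges of Ddx58 (105.4 to 138.4), Ifih1, Dhx58 and Irf7. Mx1 had 70.8 per kb (64.6 to 100), overlapping Irf7 (83.9 to 112.3). Stat2 remained highest at 736.6 per kb (679.5 to 795.3), and Irf9 (326.9 per kb) was above both Mx2 promoter regions.

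The ground around the genes was described by every region within 50 kb of a member promoter region. There were 43 such regions, of which 42 were tested; limma called 5 higher and 6 lower, or 26.2% beside 41.3% of all regions tested. At Ifih1 the only other region, chr2:62651975-62652196, had 12, 10 and 12 against 31, 15 and 32 and rose by 1.04 on the log2 scale (SE 0.315, limma adjusted p = 0.00696). At Ddx58, chr4:40285607-40285965, 45.2 kb away, had 24, 20 and 9 against 55, 74 and 46 and rose by 1.94 (SE 0.255, limma adjusted p = 5.08e-08). Thus Ifih1 and Ddx58, whose starts were not called, each had a region at a low level that rose within 50 kb. A second region near Ddx58, chr4:40288829-40289371, had 49, 37 and 60 against 107, 131 and 133, a rise of 1.26 (limma adjusted p = 3.86e-09). No link between such a region and the gene was tested. Near Zbp1, 1 of 8 regions was called higher and 1 lower. The higher one, chr2:173185384-173185537, had 29, 16 and 20 against 50, 37 and 23, so its groups overlapped. It rose by 0.70 (limma adjusted p = 0.0264), 33.4 kb from a promoter region that was lower. Near Mx1, chr16:97447440-97447686, at the far end of the gene, fell by 0.59 on the log2 scale (47, 53 and 49 against 40, 23 and 37; limma adjusted p = 0.0247). It was 1 of 2 regions called lower among the 5 tested near Mx1, with 0 called higher.

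Of the promoter regions of other genes within 50 kb, limma called 1 of 3 at Stat2, 2 of 3 at Irf7 and 1 of 6 at Irf9. Among all promoter regions, 18.7% were called lower and 14% higher, so nothing particular to these genes is read from the counts. At Stat2 the promoter region of Timeless, which acts at replication forks, rose by 0.28 on the log2 scale (limma adjusted p = 0.00642). At Irf7 that of Rassf7 fell by 0.24 (limma adjusted p = 0.000711). At Irf9 that of Psme1, an interferon-inducible activator subunit of the proteasome, had 220, 209 and 241 against 164, 147 and 142 and fell by 0.59 (SE 0.101, limma adjusted p = 7.56e-06), while the Irf9 region 24.9 kb away had overlapping groups. The promoter region of Psme2, 11.8 kb from the Irf9 region, was not called (log2 fold change -0.07, limma adjusted p = 0.248). Around Dhx58 and Mx2, limma called 0 of 4 other regions each, and 0 had an unadjusted p under 0.05.

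Mx1 and Mx2 stand on opposite strands with their starts facing, and 71.6 kb separates their promoter regions. Of the 5 regions between them, 4 were tested and limma called 0, with 0 at an unadjusted p under 0.05. Their log2 fold changes were 0.19 (12.3 kb from the Mx1 region, limma adjusted p = 0.26), 0.05 (32.5 kb, 0.747), -0.06 (59.9 kb, 0.883) and the 0.18 of the Mx2 region at 1354 bp. The region not tested, at 4.83 kb, had signals from 5 to 12. The lower signal was thus at the 2 ends of this stretch, with no called region between.

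**Figure D3:**
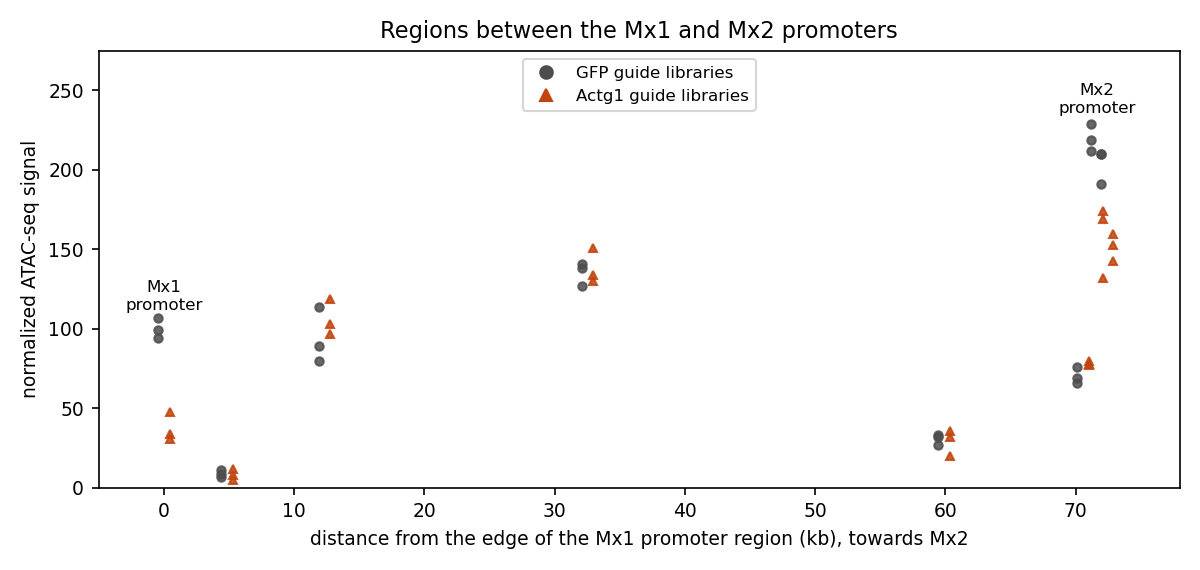
Normalized signal of the regions from the Mx1 promoter region (left) to the Mx2 promoter regions (right) against distance in kb from the edge of the Mx1 region, 1 point per library. The groups are apart at the 2 ends (Mx1 99, 94 and 107 against 48, 34 and 31) and overlap or lie close in between.

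The other genes of the pathway were described by 3 lists that leave out the 9 genes, read at promoter regions only. Among upstream sensors, adaptors and cell death genes, 37 of 50 listed genes had a promoter region, and of their 38 regions 9 rose, 12 fell and 17 were not called, with a median log2 fold change of -0.02. The share called lower was 31.6%, and higher 23.7%, beside 18.7% and 14% of all promoter regions. Among interferon ligands, receptors and JAK-STAT genes, 27 of 42 had a region, and 5 rose, 6 fell and 16 were not called, with a median of -0.05. Among interferon-stimulated genes, 56 of 86 had a region, and of 62 regions 6 rose, 15 fell and 41 were not called, with a median of -0.12. The 9.68% called higher was below the 14% of all promoter regions and the 24.2% called lower above the 18.7%. The counts were smaller without GFP-guide replicate 3: the sensing list had 2 higher and 3 lower, the JAK-STAT list 1 and 1, and the interferon-stimulated list 2 and 3. Without Actg1-guide replicate 1 the sensing list had 5 higher and 7 lower and the JAK-STAT list 3 higher; without Actg1-guide replicate 3 the JAK-STAT list had 3 lower and the interferon-stimulated list 3 higher.

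In the sensing list the largest called rises were at Tlr9, Tank and Adar. Tlr9, the endosomal receptor of unmethylated CpG DNA, had 15, 26 and 20 against 49, 49 and 57, a rise of 1.31 on the log2 scale (SE 0.210, limma adjusted p = 2.57e-06). Adar, which edits double-stranded RNA and so hides it from the sensors, had 127, 124 and 120 against 173, 184 and 164, a rise of 0.50 (SE 0.106, limma adjusted p = 0.000206). Tank, a scaffold of the kinases that phosphorylate IRF3, rose by 0.98 at a signal of 9 to 31 (limma adjusted p = 0.0094). The largest called falls were at Sting1, Ifi204 and Ikbke. Ifi204, a DNA-binding protein of the AIM2-like family, had 460, 502 and 516 against 352, 372 and 358 and fell by 0.47 (SE 0.068, limma adjusted p = 4.27e-07). Sting1, the adaptor of cGAS, fell by 0.48 (limma adjusted p = 0.0188), and Ikbke, a kinase that TANK binds, by 0.40 at its region 195 bp from the start (limma adjusted p = 0.0473). A weak second Ikbke region at 770 bp was not called (0.24, limma adjusted p = 0.582). The calls of Tlr9, Adar and Ifi204 stayed under every alternative. Those of Sting1, Tank and Ikbke did not: without GFP-guide replicate 3 the limma adjusted p was 0.263, 0.0575 and 0.391, and without Actg1-guide replicate 1 it was 0.131, 0.0896 and 0.168. Leaving out Actg1-guide replicate 3 also ended the call of Sting1 (0.0907), Actg1-guide replicate 2 those of Tank (0.0564) and Ikbke (0.121), and GFP-guide replicate 1 or 2 that of Ikbke (0.0509 and 0.0672).

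In the JAK-STAT list the largest called fall was at Stat5a and the called rises were at most 0.30 on the log2 scale. Stat5a, a STAT of cytokine and growth hormone receptors, had 84, 94 and 80 against 65, 42 and 59 and fell by 0.62 (SE 0.169, limma adjusted p = 0.00266). Its neighbour and near-copy Stat5b went the other way, with 130, 177 and 158 against 198, 189 and 180, a rise of 0.28 (limma adjusted p = 0.0224). Stat6 rose by 0.22 (limma adjusted p = 0.00279) and Irf2bp1, a partner of IRF2, by 0.30 (adjusted p = 0.000293). Usp18, which removes ISG15 from proteins and damps the interferon receptor, had 359, 353 and 310 against 266, 295 and 272 and fell by 0.26 (limma adjusted p = 0.00869). Without GFP-guide replicate 3 limma's adjusted p was 0.106 for Stat5b, 0.121 for Stat6 and 0.0749 for Stat5a. Without Actg1-guide replicate 1 it was 0.0806 for Stat5b and 0.0609 for Usp18, and without GFP-guide replicate 1 it was 0.185 for Stat5b. With no mean-variance trend none of these genes was called, with limma adjusted p from 0.0683 (Irf2bp1) to 0.159 (Stat6).

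In the list of interferon-stimulated genes, Ifitm10 was the only region lower by at least 2-fold, with 45, 43 and 35 against 17, 16 and 22. It fell by 1.07 on the log2 scale (SE 0.256, limma adjusted p = 0.000752) and belongs to the IFITM family, whose best known members block virus entry. Whether interferon induces Ifitm10 itself was not examined here. Lgals3bp, a secreted galectin ligand, had 181, 196 and 172 against 111, 110 and 103 and fell by 0.73 (SE 0.113, limma adjusted p = 1.19e-06). Irgm1, an immunity-related GTPase, fell by 0.58 at its region 561 bp from the start (limma adjusted p = 0.00274), while its region 262 bp from the start was not called (-0.07, limma adjusted p = 0.562). Rsad2, which encodes viperin, rose by 0.74 (SE 0.223, limma adjusted p = 0.00681), with 26, 24 and 22 against 43, 43 and 34. Tdrd7 rose by 0.45 at its region 309 bp from the start (limma adjusted p = 0.00417), while its region at 646 bp was not called (-0.24, limma adjusted p = 0.308). Gbp2, a guanylate-binding GTPase, rose by 0.43 at its region 665 bp from the start (limma adjusted p = 0.0201) and was not called at 29 bp (0.26, limma adjusted p = 0.0722). The effectors thus moved in both directions beside the lower signal at Mx1 and Mx2. Without GFP-guide replicate 3 limma's adjusted p was 0.106 for Rsad2, 0.12 for Gbp2 and 0.0568 for Irgm1. The Gbp2 call was also lost without GFP-guide replicate 2 (0.0654) and Actg1-guide replicate 1 (0.114) or 3 (0.0596). With no mean-variance trend the calls of Gbp2 (limma adjusted p = 0.0743) and Tdrd7 (0.0677) were lost.

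**Figure D4:**
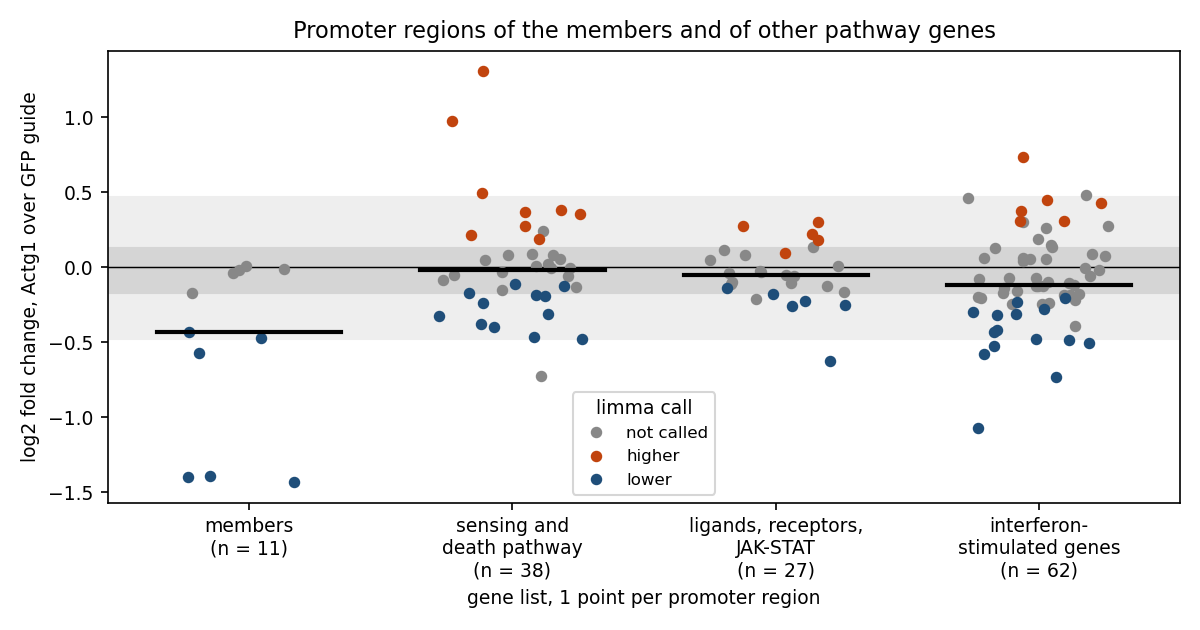
Log2 fold change (Actg1 guide over GFP guide) of the promoter regions of the 9 genes and of the 3 other lists, 1 point per region, coloured by limma call. The 11 member regions, whose genes were chosen on known differences in this comparison, have a median of -0.43. The 3 lists have medians of -0.02, -0.05 and -0.12 with points on both sides of 0.

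The signalling genes between the sensors and the effectors were read whatever their change. Mavs, the adaptor of MDA5 and RIG-I (-0.06, limma adjusted p = 0.525), Cgas (-0.03, 0.888), Irf1 (0.11, 0.286), Ifnar2 (-0.06, 0.604), Tyk2 (0.01, 0.911) and Isg15 (-0.18, 0.289) were not called, and the signs of Cgas and Tyk2 turned under some alternatives. Irf3, the factor that the sensors activate, had 147, 187 and 149 against 220, 204 and 193 and rose by 0.38 (SE 0.099, limma adjusted p = 0.00186). Jak1 fell by 0.23 (limma adjusted p = 0.00894) and the receptor chain Ifnar1 by 0.14 (adjusted p = 0.0468). In a fit lacking GFP-guide replicate 3 the calls of Irf3 (0.108), Jak1 (0.248) and Ifnar1 (0.171) were lost. Leaving out Actg1-guide replicate 3 ended those of Jak1 (0.0566) and Ifnar1 (0.0536), and the Ifnar1 call was also lost without GFP-guide replicate 2 (0.0699), Actg1-guide replicate 1 (0.0839) or Actg1-guide replicate 2 (0.0747). With no mean-variance trend the calls of Irf3 (limma adjusted p = 0.0587), Jak1 (0.169) and Ifnar1 (0.304) were lost too. Ripk3, through which ZBP1 acts, was not analysed here.

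Promoter regions with and without the ISRE letters were set side by side for all genes. Of 257 promoter regions that overlap a RefSeq window with the core, 36 were called higher and 48 lower (18.7%), with a median log2 fold change of -0.03. Of 7413 that overlap only windows without it, 933 were higher (12.6%) and 1415 lower (19.1%), with a median of -0.03. For GAS the shares were 14.1% higher and 19.7% lower of 569 regions with it, and 12.5% and 19.0% of 7101 without. Among the 32 promoter regions of the 9 genes and the lists with the ISRE core, 4 rose (Socs1, Ifi203, Oas1g and Rsad2), 6 fell (Ifitm3, Gbp7, Ifitm2, Mnda, Trim21 and Eif2ak2) and 22 were not called, the Ifih1, Ddx58 and Stat2 regions among the last. Of these 32, 12.5% rose and 18.75% fell, beside 18.57% and 24.29% of the 70 such regions that overlap only windows without the core. Regions that overlap no window are in neither count. Windows of Zbp1, Mx1, Mx2 and Dhx58 were not used, so the shares do not show whether their lower promoter regions hold the core. A difference between these shares was not tested. A pair from each direction is shown because the core occurs in both, printed 5′ to 3′ on the strand of the gene with the matches in capitals.
Gbp7, chr3:142530253-142530322, plus strand: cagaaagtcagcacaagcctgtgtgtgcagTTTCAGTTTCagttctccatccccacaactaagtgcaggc
Ifitm3, chr7:141010715-141010772, minus strand: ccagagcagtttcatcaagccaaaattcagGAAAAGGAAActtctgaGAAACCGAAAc
Oas1g, chr5:120887592-120887661, minus strand: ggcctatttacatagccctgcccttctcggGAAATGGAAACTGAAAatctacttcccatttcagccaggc
Rsad2, chr12:26456533-26456602, minus strand: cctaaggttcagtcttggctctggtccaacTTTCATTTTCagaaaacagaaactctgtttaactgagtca
Gbp7 and Ifitm3 fell, and Oas1g and Rsad2 rose. These 4 were chosen after their values were seen.

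Likeness to Mx1, the member with the largest change, was measured as Pearson's correlation of log2 signal over the 6 libraries across all promoter regions. The closest were Ak3 (r = 0.998), Slc25a4 (0.996), Cggbp1 (0.996), Eef2kmt (0.994) and Pkn2 (0.994), and none of these 5 is in the lists above. Among the 9 genes, the upstream Zbp1 region came closest to Mx1 (0.939, with 621 promoter regions closer), followed by Mx2 (0.888 and 0.879), Dhx58 (0.842) and the small Zbp1 region (0.835). The regions of Irf9, Irf7, Stat2 and Ifih1 had 0.361, 0.344, 0.338 and 0.238, and that of Ddx58 had -0.306. The 6 libraries fall into the 2 groups, so these correlations mostly restate the difference between groups; 461 promoter regions (3.96%) had a correlation above 0.95.

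The fibroblast label was read at promoter regions of marker genes: 11 of 14 fibroblast markers had one (Fap, Pdgfra and Thy1 did not), with summed signals of 4182 to 4238 with the GFP guide and 3887 to 4025 with the Actg1 guide. Immune markers had 2 of 14 (Cd14 and Lyz2, summed 222 to 230 and 257 to 291), with none for Ptprc or Spi1, epithelial markers 3 of 10 (177 to 211 and 154 to 202) and endothelial markers 1 of 8 (50 to 70 and 54 to 62). The fibroblast and immune sums did not overlap between the groups, those of the other lists did, and their part in the results above was not tested. Signal totals lay between 7673745 and 7831438 per library, on an estimated 5675571 to 9525252 reads. GFP-guide replicates 1 and 2 had a chi-square per region of 1, as sampling noise gives, against 1.03 to 1.12 for the other pairs within a group and 4.54 to 6.55 between groups. The labels call the libraries biological replicates without saying that they came from separate cultures, so the p-values speak only to the spread among these 6 libraries, which may be technical.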

How the data were processed

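Accessibility was measured by ATAC-seq in 6 NIH/3T3 libraries of 25000 cells each, per the labels' protocols. The authors deposited 1 table with a normalized signal per region and library, in whole numbers that are not raw counts; its regions carry a gene, a gene type and an unsigned distance to the TSS. The submitters' processing notes name DESeq2 1.36.0, DESeq, featureCounts, Picard 3.0.0, Trimmomatic 0.39 and STAR 2.7.10a for reads on mm10, without roles. How peaks were called, whether Tn5 cuts were shifted, which annotation was used and how the signal was normalized is not given in the sources used here. Reads per library were estimated from the spacing of the small signal values, not read from a count.

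Groups came from the labels. The first and second GFP-guide libraries were alike within sampling noise and were averaged, leaving 2 samples against 3. Kept were regions that reached a signal of 10 in 3 or more of 6 libraries (61327 of 63430; all 14 member regions passed), log2(signal + 1) was fitted with limma 3.58.1 in R 4.3.3 with a mean-variance trend, and p-values were adjusted by Benjamini-Hochberg over all regions kept. The call threshold was 0.05 on the adjusted p. The fit was tested on simulated data. Deviations of same-numbered libraries from their group means had correlations of 0.025, 0.014 and 0.016 between the groups. Those of differently numbered libraries lay between -0.017 and -0.000. The same-numbered values were thus slightly higher, with all values near 0. The main fit did not pair the libraries by number, and a fit with a replicate block was among the alternatives.

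The genes and lists were chosen with earlier results of these data known. The text names every region of the 9 genes, 3 called promoter regions per list and direction with the largest log2 fold change, a fixed set of central pathway genes (1 named gene of the lists is not reported here), the called region with the largest change within 50 kb of each gene, and the 5 promoter regions most like that of Mx1. Alternatives were a pseudocount of 5, no filter, cyclic loess or promoter-median scaling, 6 separate libraries with and without a replicate block, no mean-variance trend, a promoter limit of 5000 bp, and leaving out each library. Standard errors cover the spread between these libraries only.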

Additional observations from a re-analysis of the deposited data

How the results depend on the processing

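Of 41 named log2 fold changes, 6 changed sign under 1 or more of 13 alternatives, and 0 of these had been called: Ifih1 (-0.10 to 0.05), Ddx58 (-0.08 to 0.12), Stat2 (-0.12 to 0.05), Irf9 (-0.12 to 0.01), Cgas (-0.09 to 0.11) and Tyk2 (-0.04 to 0.05). A pseudocount of 5, no filter, 6 separate libraries and the replicate block kept all 41 on their side of the threshold. Cyclic loess ended 1 call (Ifnar1, adjusted p = 0.16 by limma), scaling to the promoter median 2 (Ifnar1, 0.0637, and Ikbke, 0.0556) and no mean-variance trend 15. Leaving out GFP-guide replicate 3, which leaves 1 averaged GFP-guide sample, ended 16, GFP-guide replicates 1 and 2 ended 2 and 4, and Actg1-guide replicates 1, 2 and 3 ended 9, 3 and 5. The main fit did not pair the libraries by replicate number. With the replicate block, 14322 regions were higher and 14403 lower, against 14071 and 14105 for 6 separate libraries without it. Leaving out 1 library gave 7381 to 12490 regions higher and 5412 to 12216 lower, the lowest both without GFP-guide replicate 3, beside 12642 and 12681 with all libraries; no trend gave 8120 lower. Of the 6 promoter regions of the 9 genes called lower, 3 to 6 were called when 1 library was left out, and a promoter limit of 5000 bp left the 6 lower and 0 higher. With no trend, the sensing list had 2 higher and 3 lower, the JAK-STAT list 0 and 0, and the interferon-stimulated list 1 and 8. Leaving out 1 library gave 2 to 8 higher and 3 to 11 lower for sensing, 1 to 5 and 1 to 6 for JAK-STAT, and 2 to 6 and 3 to 16 for interferon-stimulated genes. Without GFP-guide replicate 3 there is 1 sample fewer in the control group; otherwise the cause was not tested. The small Zbp1 region had signals of 7 to 29, and whether depth limits such weak regions was not tested.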
